A study of Mus musculus with 6 samples.

Results

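TRIM genes encode ubiquitin ligases named for a tripartite motif, a RING domain followed by B-box zinc fingers and a coiled coil. The members were the genes of the deposited table whose symbol is Trim with a number and an optional letter, leaving out pseudogenes. There were 68 such genes among 55401, and 44 of them had enough reads to be tested. They were measured by RNA sequencing in mouse bone marrow-derived macrophages, which are cells grown from marrow in the cytokine M-CSF (here 40 ng/mL, with 10% serum, for 7 days). The marrow came from C57BL/6 mice, with 3 libraries from wild-type cells (WT) and 3 from cells given as Mettl3-/- (KO). The Mettl3 protein is the active methyltransferase of the complex that places N6-methyladenosine in messenger RNA. How the Mettl3 allele was made, the age of the mice and the treatment that was to follow the culture are not stated in the labels. No label ties a replicate to its own mouse or culture, so the p-values below measure only the spread between these libraries, which may be technical.

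In a TRIM ligase the RING domain recruits a ubiquitin-charged E2 enzyme, the coiled coil brings chains together, and the part after it binds the target. That last part is a SPRY domain in most members, and a PHD finger with a bromodomain, NHL repeats or another fold in others. Many SPRY members are induced by interferon and act in antiviral defence in macrophages, by binding viral proteins or by ubiquitinating proteins of the RNA-sensing and NF-kB pathways. Members with a PHD finger and a bromodomain work on chromatin instead.

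The genotype label was not mirrored in the gene-level RNA of Mettl3. Its FPKM (fragment counts corrected for the length of the transcript and for sequencing depth) was 2.62, 2.91 and 2.26 in WT and, in the libraries labelled KO, 2.504, 2.56 and 2.93 (log2 difference 0.02 with an SE of 0.11, edgeR adjusted p = 0.93; -0.07 without WT replicate 3 and -0.06 without KO replicate 3). A value for the whole gene cannot show whether a part of the transcript or the protein was lost, and neither was examined here. Directions below are therefore given for the libraries labelled KO. Totals ran from 67280390 to 77997742 estimated counts. Summed over 6 macrophage markers the FPKM was 16102 to 16447 in WT and 8080 to 8162 in labelled KO. Of these markers Mertk and Csf1r were called higher and Adgre1 and Lyz2 lower, so not all 6 fell with the sum. Such a sum is weighted towards its most abundant genes. With 2 of the 6 markers called higher and 2 lower, the fall of the sum does not describe these markers as a group. The sum of 9 monocyte and neutrophil markers was 175 to 184 in WT and 208 to 225 in labelled KO, with Mpo, Ly6c2 and Plac8 higher. Markers of T and NK cells summed to 6.73 to 6.91 FPKM in WT, against 8.09 to 8.47 in labelled KO, with 0 of 6 called. Markers of B and plasma cells, dendritic cells and mast cells summed to at most 2.27 FPKM in any library, with Siglech, Fcer1a and Mcpt4 at a count of 0. Stromal and endothelial markers summed to 4.69 to 5.91 FPKM, with Pecam1 lower in labelled KO. In bulk RNA, fewer cells of a type and less RNA per cell cannot be told apart, and the part of these markers in the TRIM values was not tested.

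The letters of a motif known to be bound by interferon-activated factors were present in the promoters of most interferon-related members, which is a match of letters and not a measured site. The sequence searched was GAAANNGAA, the core of the interferon-stimulated response element, on both strands (TTCNNTTTC in the opposite sense) of RefSeq promoters of build GRCm38.p6. Each promoter window runs from 250 bases before the annotated start to 50 after it. Of 15 interferon-related members in the table (Trim5, Trim6, Trim12a, Trim12c, Trim14, Trim21, Trim25, Trim26, Trim30a to Trim30d, Trim34a, Trim34b and Trim56), 14 had a promoter there and 10 of these held the motif (71.4%). Among the other TRIM genes 2 of 39 did (5.13%; Trim2 and Trim7), or 2 of 19 (10.5%) counting only tested ones, as all interferon-related members were, and over all 27025 genes with a promoter 9.76% did. The list of interferon-related members came from textbook knowledge, so this is a description of chosen genes. The stretches around the matches are shown because several of them are alike or the same within the chromosome 7 cluster. They run 5′ to 3′ on the gene's strand, with matches in capitals.
Trim30a (chr7:104465210-104465238, minus): gttctttagtTTCTTTTTCtcagttcctg
Trim30d (chr7:104507871-104507899, minus): gttctttagtTTCTTTTTCtcagttcctg
Trim12a (chr7:104315466-104315494, minus): gagttgtggtTTCTGTTTCatttccagag
Trim5 (chr7:104288136-104288164, minus): gagttgtggtTTCTGTTTCatttccagag
Trim12c (chr7:104353359-104353387, minus): gagttgtggtTTCTGTTTCatttccagct
Trim34a (chr7:104244458-104244486, plus): ggtttggagtTTCAGTTTCttttctctgc
Trim34b (chr7:104329250-104329278, plus): tccttctgccTTCTCTTTCctgtgccacc
Trim21 (chr7:102565448-102565476, minus): ctgagagGAAACTGAAAGTGAAatttgga
Trim25 (chr11:88999384-88999412, plus): gcccctcctgTTCAGTTTCgattccttcc
Trim26 (chr17:36836980-36837008, plus): ttccgatTTCACTTTCCTTTTCtcgggcc

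The stretch was letter for letter the same in Trim30a and Trim30d, and in Trim5 and Trim12a. Trim21 and Trim26 each held 2 overlapping matches. The match began 35 bases before the start in Trim30a (position -35), at -40 in Trim30d, -48 in Trim5, -28 in Trim12c and -9 in Trim25. It lay just after the start in Trim12a and Trim34a (12) and in Trim21 (14), and farther upstream in Trim26 (-159) and Trim34b (-211). A second annotated start of Trim30a had a match at 4. The windows of Trim6, Trim30b, Trim30c and Trim56 held no match, which says only that these letters are not in these windows.

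**Figure D1:**
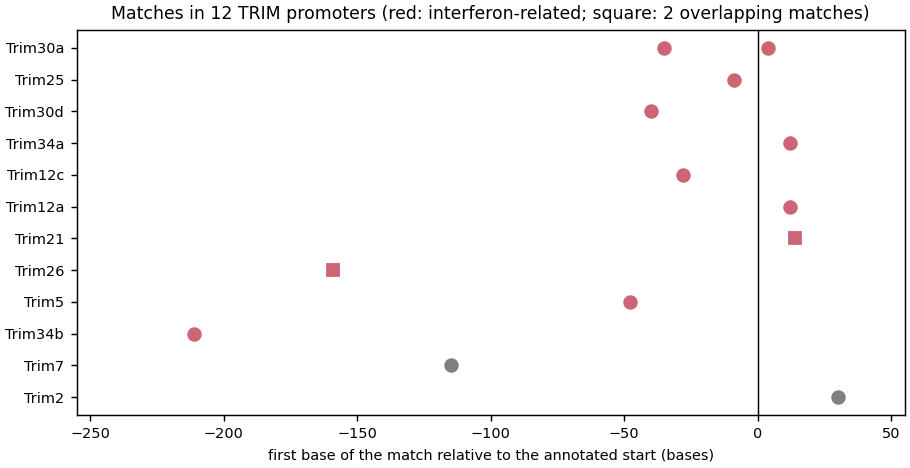
Position of each motif match in the promoters of 12 TRIM genes, as the distance in bases of its first base from the annotated start (0). Rows are ordered by FPKM, the highest at the top; in 8 of the 10 interferon-related members (red) a match lies between -48 and 14, and the matches of Trim26 and Trim34b lie farther upstream.

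Trim30a was the most abundant TRIM transcript and took a steady share of the family. Its FPKM was 97.8, 94.1 and 96.1 in WT and 99.4, 96.7 and 98.8 in labelled KO, and the groups overlapped. The product of Trim30a is induced by Toll-like receptor and interferon signals and is known to dampen NF-kB activation. Trim30a made up 20.3% to 21.8% of the summed FPKM of all 68 members in the 6 libraries, and the 10 highest members together made up 70.2% to 72.4%. The summed FPKM itself was 443 to 482 in WT and 444 to 485 in labelled KO. In WT the order below Trim30a was Trim25 (52.1 ± 17.3 FPKM in WT, SD, n = 3), then Trim34a (33.2 ± 0.730), Trim30d (32.5 ± 4.25), Trim8 (26.8 ± 0.902), Trim41 (20.5 ± 0.927), Trim35 (20.3 ± 1.38), Trim28 (18.5 ± 1.08), Trim30c (17.1 ± 0.454) and Trim12c (15.8 ± 0.531). Of the neighbours in this order, Trim34a and Trim30d, Trim41 and Trim35, Trim35 and Trim28, and Trim28 and Trim30c differed by less than the sum of their SDs. Over all 6 libraries 35 members had a mean of at least 1 FPKM and 13 of at least 10. The median of the 44 tested members was 4.28 FPKM, against 2.84 over all 16256 tested genes. Among tested members the median was 10.1 FPKM for the 15 interferon-related ones and 1.97 for the other 29.

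**Figure D2:**
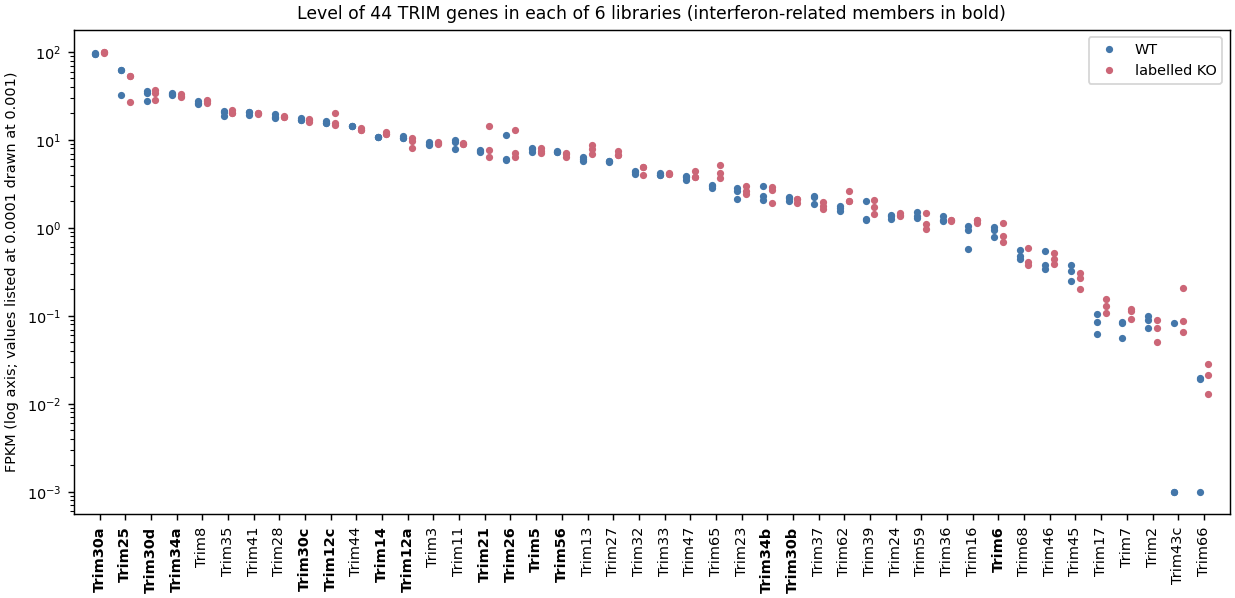
FPKM on a log axis of the 44 tested TRIM genes, ordered by their mean; each point is 1 library, WT in blue and labelled KO in red, and values listed at 0.0001 are drawn at 0.001. Trim30a stands at 94.1 to 99.4 FPKM in all 6 libraries, and Trim25, Trim26 and Trim21 each show libraries that stand apart within a group.

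The remaining 24 members were close to or at 0. For 15 of them the count was 0 in every library, which at 3 counts per library allows up to 0.0385 to 0.0446 CPM, counts scaled to a common library total (counting error only). These included the muscle members Trim54 and Trim63, the stem cell regulator Trim71, Trim58 of the red cell lineage, and Trim10, Trim31 and Trim40. The highest count of any of these 24 genes in a library was 15 (Trim69 in KO replicate 2). Trim15 had a count of 12 in WT replicate 1 and Trim29 counts of 12 and 8 in KO replicates 1 and 2, and both were at 0 elsewhere. Trim38, a negative regulator of Toll-like receptor signalling, had a count of 4 in WT replicate 3 and 0 in the other 5 libraries. On chromosome 17, Trim26 (36837134 to 36859398) was read at 5.87 to 12.9 FPKM, while Trim15, Trim10, Trim40 and Trim31, which lie between 36860691 and 36910214, had at most 12 counts in a library.

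Between the groups, 2 of the 44 tested TRIM genes differed, Trim27 and Trim65, both higher in the libraries labelled KO. A gene was called at a Benjamini-Hochberg adjusted p under 0.05 in edgeR's quasi-likelihood test over all 16256 tested genes. Of those, 12.7% were called, 7.01% higher and 5.67% lower, and the share among TRIM genes was 4.55%. At an unadjusted p under 0.05 there were 7 TRIM genes, 5 higher and 2 lower, against 26.5% of all tested genes. The FPKM of the groups did not overlap for 10 TRIM genes, 8 above and 2 below WT, against 33.8% of all tested genes. The median log2 fold change was 0.02 for TRIM genes and -0.00 for all tested genes, and the median absolute value was 0.11 and 0.18. No TRIM gene was called lower by edgeR, DESeq2 or limma, other than with the replicate number as a block. The number called higher was 4 by DESeq2, which was run with its own filter in place of edgeR's, and 1 by edgeR with no filter on low counts. It was 0 without WT replicate 1, 2 or 3, 1 without KO replicate 1 or 3, and 3 without KO replicate 2. In such fits with 5 libraries, 1244 to 1339 of all genes were called, against 2060 with 6.

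Trim27 encodes the RET finger protein, a SPRY ligase of the nucleus and endosomes. Trim27 (ENSMUSG00000021326, chromosome 13, 21179445 to 21194724, plus strand, mm10) was read at 5.701, 5.59 and 5.76 FPKM in WT, against 6.81, 7.56 and 6.72 in labelled KO. Every library labelled KO was above every WT library. The log2 fold change was 0.29 (SE 0.057; edgeR adjusted p = 0.0222), a ratio of 1.22 with 95% limits of 1.11 and 1.34. Without 1 library the direction was the same, with log2 fold changes of 0.23 to 0.32. It was no longer called when WT replicate 1, 2 or 3 or KO replicate 1 was dropped (edgeR adjusted p of 0.0703, 0.0788, 0.0614 and 0.0503). The call of Trim27 was also lost with the replicate number as a block.

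Trim65 encodes a SPRY ligase that ubiquitinates the RNA sensor MDA5 and promotes its activation. Trim65 (ENSMUSG00000054517, chromosome 11, 116121846 to 116131126, minus strand, mm10) was read at 2.88, 2.96 and 3.12 FPKM in WT, against 5.17, 3.71 and 4.16 in labelled KO. The groups did not overlap, and the libraries labelled KO were spread more widely. The log2 fold change was 0.52 (SE 0.12; edgeR adjusted p = 0.039), a ratio of 1.44 with 95% limits of 1.17 and 1.76. It was no longer called when WT replicate 1, 2 or 3 or KO replicate 3 was dropped (edgeR adjusted p of 0.116, 0.113, 0.091 and 0.0899), without a filter on low counts (0.0589), and by limma on log2(FPKM + 0.1) (0.0539) or log2(FPKM + 1) (0.0599). The call of Trim65 was also lost with the replicate number as a block. Of its 50-base words 3.05% also occur in transcripts of other genes, mostly of Trim47.

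**Figure D3:**
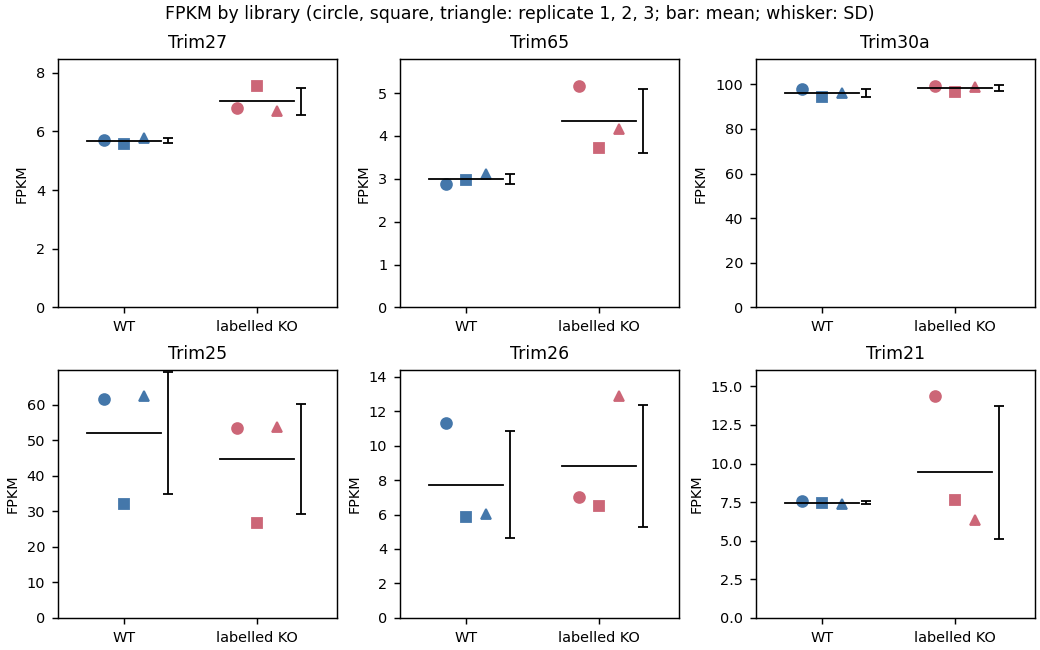
FPKM of 6 TRIM genes in each library, with the group mean (bar) and SD (whisker); axes start at 0 and the symbols mark replicates 1 to 3. Trim27 and Trim65 do not overlap between groups, Trim30a sits within 94.1 to 99.4 FPKM, and in Trim25, Trim26 and Trim21 the SD of at least 1 group exceeds the difference between the group means.

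Trim13, an endoplasmic reticulum ligase that takes part in the disposal of misfolded proteins, was close to the threshold. It was read at 6.33, 5.75 and 6.05 FPKM in WT, against 7.98, 7.01 and 8.68 in labelled KO, with no overlap. Its log2 fold change was 0.37 (SE 0.097; edgeR adjusted p = 0.0573). DESeq2 (adjusted p = 0.0152), limma on log2(FPKM + 0.1) (0.0462) and on log2(FPKM + 1) (0.0486), and edgeR without KO replicate 2 (0.0401) called it. Trim62, a ligase that activates the adaptor CARD9, was at 1.55, 1.701 and 1.79 FPKM in WT, against 2.03, 2.61 and 2.02 in labelled KO. Its log2 fold change was 0.38 (SE 0.12; edgeR adjusted p = 0.105), and DESeq2 called it (adjusted p = 0.0444). Trim44, which lacks a RING domain, was at 14.29, 14.26 and 14.29 FPKM in WT, against 13.02, 12.97 and 13.86 in labelled KO (log2 fold change -0.12, edgeR adjusted p = 0.095). Its values were below WT in every library labelled KO and did not pass.

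Among the interferon-related members, 0 of 15 were called by edgeR, 0 by DESeq2 and 2 at an unadjusted p under 0.05 (Trim14 and Trim56). Over all tested genes edgeR called 12.7%, and 26.5% had an unadjusted p under 0.05, so in 15 genes a count of 0 calls sets them little apart. Their median log2 fold change was -0.04, between -0.24 (Trim25) and 0.32 (Trim21). Trim14, an adaptor without a RING that works with MAVS and cGAS, was at 10.91, 10.93 and 10.84 FPKM in WT, against 12.3, 11.8 and 11.7 in labelled KO (log2 fold change 0.12, edgeR adjusted p = 0.102). Of its exonic bases 38% lie opposite exons of other genes, among them Nans. Whether the counting used strand is not stated, so reads of those genes may be included. Trim56, a ligase of double-stranded RNA and DNA sensing, was at 7.35, 7.34 and 7.43 FPKM in WT, against 7.05, 6.36 and 6.84 in labelled KO (log2 fold change -0.14, edgeR adjusted p = 0.0998). The groups did not overlap for either gene, and neither passed.

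The chromosome 7 cluster spans 289 kb from 104218793 to 104507849 and holds 10 tested members, of which 0 were called by edgeR and 0 had an unadjusted p under 0.05 (12.7% and 26.5% of all tested genes), and 10 genes are few to set against those shares. These are the Trim5, Trim12, Trim30 and Trim34 genes and Trim6, relatives of the retrovirus restriction factor TRIM5 of primates. Levels within the cluster ran from 0.899 FPKM (Trim6) to 97.2 FPKM (Trim30a), whereas their log2 fold changes lay between -0.20 (Trim12a) and 0.06 (Trim12c). For Trim30a the 95% limits were -0.04 and 0.07, a ratio between 0.976 and 1.05. For Trim34a they were -0.17 and 0.01, and for Trim30c -0.17 and 0.08. Of the exonic bases of Trim34a 23.5% lie opposite exons of Gm47248, and whether the counting used strand is not stated. Trim30d was at 35.7, 34.1 and 27.7 FPKM in WT, against 37.2, 34.0 and 28.8 in labelled KO, lowest in replicate 3 of each group. Trim12a was at 11.1, 10.5 and 10.5 FPKM in WT, against 9.64, 10.5 and 8.17 in labelled KO, and the groups overlapped. Trim12c was at 15.7, 15.4 and 16.4 FPKM in WT, against 15.5, 20.03 and 14.6 in labelled KO, with KO replicate 2 highest. Close paralogs make some values uncertain. Trim34b shared 56.8% of its 50-base words with other transcripts and Trim34a 39.8%, each mostly with the other, Trim5 shared 36.3% and Trim12c 33.0%, each mostly with the other, and Trim12a shared 10.4%. Trim30a shared 5.98% and Trim30c 0.660%.

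**Figure D4:**
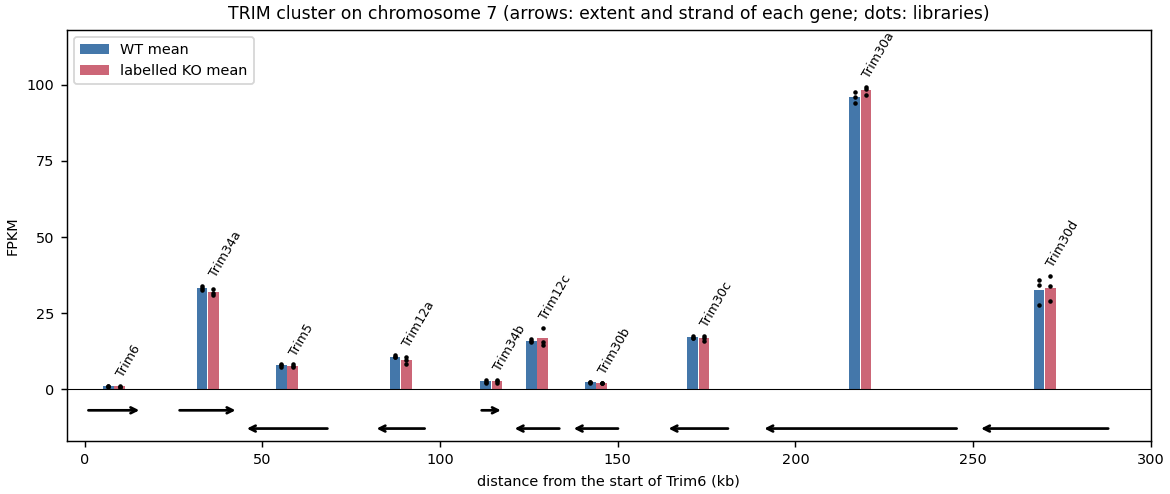
Mean FPKM of the 10 cluster genes in WT (blue bars) and labelled KO (red bars), with the libraries as dots, placed by distance in kb from the start of Trim6; arrows show each gene's extent and strand. Trim30a stands highest at 96.0 FPKM in WT, against 98.3 in labelled KO, and the paired bars of each gene are close in height.

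In Trim25, Trim26 and Trim21, libraries within a group differed from each other by more than the groups did. This held in both groups for Trim25 and Trim26, and in labelled KO alone for Trim21. Trim25 activates the RNA sensor RIG-I through ubiquitin chains. Trim25 (ENSMUSG00000000275, chromosome 11, 88999376 to 89020293, plus strand) was at 61.6, 32.1 and 62.4 FPKM in WT, against 53.4, 26.7 and 53.8 in labelled KO. Replicate 2 of each group was lowest, on 14150 and 11818 estimated counts, against 25891 to 27614 in the other 4 libraries. The log2 fold change was -0.24 (SE 0.35; edgeR adjusted p = 0.729). Its 95% limits were -1.07 and 0.59, and it was 0.02 without KO replicate 2. With the replicate number as a block, the log2 fold change was -0.25 (SE 0.025; edgeR adjusted p = 0.0188), and no label pairs the replicates.

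Trim26, which acts on IRF3, was at 11.3, 5.87 and 6.04 FPKM in WT, against 7.04, 6.47 and 12.9 in labelled KO, with WT replicate 1 and KO replicate 3 high. Its log2 fold change was 0.17 (SE 0.36; edgeR adjusted p = 0.822), and -0.22 without KO replicate 3. Trim21, the cytosolic antibody receptor, was at 7.598, 7.47 and 7.35 FPKM in WT, against 14.4, 7.62 and 6.32 in labelled KO. KO replicate 1 held 4495 estimated counts of Trim21, against 2062 to 2175 in the other 5 libraries. The log2 fold change of Trim21 was 0.32 (SE 0.29; edgeR adjusted p = 0.559), and -0.12 without that library. The highest library of a group exceeded the lowest by over 1.8 times in these 3 of 26 TRIM genes with a mean count of at least 1000, and in 4.9% of all 7607 such genes. The libraries that stood apart were not the same for the 3 genes, and the cause was not tested.

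The chromatin members did not pass. Trim28, the corepressor that KRAB zinc finger proteins recruit to silence transposons, was at 17.7, 19.7 and 18.1 FPKM in WT, against 18.1, 18.4 and 18.7 in labelled KO. Its log2 fold change was -0.03 (edgeR adjusted p = 0.786), and the ratio had 95% limits of 0.904 and 1.06. Trim33, a regulator of SMAD signalling and of macrophage enhancers, was at 3.97 to 4.25 FPKM in WT, against 4.13 to 4.16 in labelled KO. Trim24, a coregulator of nuclear receptors, was at 1.26 to 1.39 FPKM in WT, against 1.36 to 1.49 in labelled KO. Trim66 was near 0, with at most 23 counts in a library. The groups overlapped in all 4.

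Of the other members above 20 FPKM, none was called by edgeR, DESeq2 or limma. Trim8, a ligase of TNF and interleukin 1 signalling, was at 26.6, 27.7 and 26.0 FPKM in WT, against 28.3, 27.6 and 26.6 in labelled KO (log2 fold change 0.02). Trim35 was at 18.7 to 21.2 FPKM in WT, against 20.1 to 22.1 in labelled KO (0.02), and Trim41 at 19.4 to 21.0 and 19.9 to 20.3 (-0.05). The 95% limits of the log2 fold change lay within -0.5 and 0.5 for 24 of the 44 tested members and within -1 and 1 for 37. The 20 tested members outside the naming rule had log2 fold changes from -0.31 (Trim2) to 2.07 (Trim43c, with at most 37 counts in a library and limits of -1.17 and 5.30). Of these, Trim16, Trim7 and Trim17 were above WT in every library labelled KO without passing, at log2 fold changes of 0.45, 0.50 and 0.59 (edgeR adjusted p of 0.269, 0.294 and 0.339). WT replicate 3 of Trim16 was at 0.572 FPKM, against 0.952 and 1.06 in the other WT libraries. Trim7 and Trim17 were near the floor, at 34 to 81 and 19 to 52 counts in a library. Of the 50-base words of Trim17, 17.7% also occur in transcripts of other genes. Trim37, a centrosome and histone ligase, differed by -0.25 on the log2 scale without passing (edgeR adjusted p = 0.202).

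**Figure D5:**
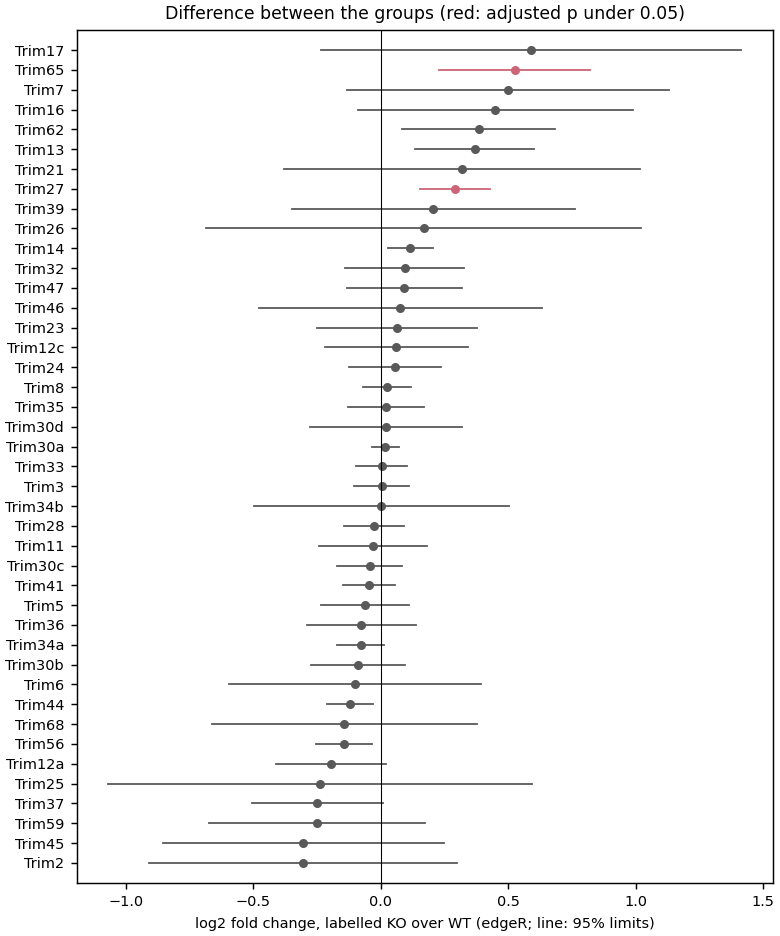
edgeR's log2 ratio of labelled KO to WT (points) with 95% limits (lines) for 42 of the 44 tested TRIM genes; Trim43c and Trim66, whose limits are too wide for the axis, are left out. Trim27 and Trim65 (red) were called, and of the others only the lines of Trim62, Trim13, Trim14, Trim44 and Trim56 do not cross 0.

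Genes that work with TRIM ligases, related genes and interferon-stimulated genes were described from 5 lists. They were set against the 12.7% of all tested genes that were called. The TRIM-type genes with other names were those of tripartite-motif or closely related proteins. Of 11 tested, 1 was higher and 0 lower in edgeR (3 had an unadjusted p under 0.05, and DESeq2 called 3). The gene that rose was Mefv, which encodes the inflammasome sensor pyrin (TRIM20), at 39.5 ± 1.14 FPKM in WT, against 55.5 ± 0.887 in labelled KO (SD, n = 3), a log2 difference of 0.48 (edgeR adjusted p = 0.000338). DESeq2's count and the 2 found without KO replicate 1 were the only departures from 1 among the alternatives run. Of 33 ubiquitin E1 and E2 genes, 3 were higher and 5 lower, with a median of 0.02. The inhibitor of apoptosis and E2 gene Birc6 rose by 0.18 on the log2 scale, Uba7, which charges ISG15, fell by 0.13, Ube2b fell by 0.19 and Ube2m, the E2 of NEDD8, fell by 0.60. Among these 4 genes, calls lost with 5 libraries were those of Uba7 without WT replicate 3 (edgeR adjusted p = 0.0517), Ube2b without KO replicate 1 or any 1 WT library (0.0522 to 0.0639), and Ube2m on dropping either KO replicate 1, 2 or 3 or WT replicate 1 or 2 (0.0911 to 0.112). Calls of the list's other members were lost as well, and its count of 8 became 2 without WT replicate 1 or 2 or KO replicate 1, 3 without KO replicate 3, 4 without WT replicate 3 and 5 without KO replicate 2.

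Of 33 tested signalling genes on whose products TRIM ligases act, 3 were higher and 3 lower, with a median of 0.01. Sqstm1, the autophagy receptor p62, fell from 187 to 155 FPKM (log2 fold change -0.29, edgeR adjusted p = 0.00032), and Ddx58, which encodes RIG-I, fell from 47.0 to 41.4 FPKM (-0.20, edgeR adjusted p = 0.00804). The nucleic acid sensor gene Zbp1 rose by 0.11 and Traf6, a ligase of Toll-like receptor signalling, by 0.22. The Traf6 call was lost without WT replicate 2 or any 1 library labelled KO (edgeR adjusted p of 0.055 to 0.0638). With any 1 library left out, the list's count was 4 (WT replicate 1 or 3) or 3 (WT replicate 2 or any labelled KO). Of 24 tested partners of TRIM28 and of the other chromatin members, 3 were higher and 1 lower, with a median of -0.02. The remodeller gene Chd4 rose by 0.18 and the histone methyltransferase gene Setdb1 by 0.25. Rara rose by 0.26 and did not pass in any of the fits on 5 libraries (edgeR adjusted p of 0.0542 to 0.148). Smad4 fell by 0.20 and, of the fits on 5 libraries, passed only in the one that lacked WT replicate 3 (0.0501 to 0.0673 in the others). The list's count was 3 without WT replicate 3 or KO replicate 2 and 2 without any other library.

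Of 40 type I interferon-stimulated genes outside the TRIM family, 3 were higher and 16 lower, with a median log2 fold change of -0.11. The smallest adjusted p-values were those of Usp18, which removes ISG15 (43.0 to 29.6 FPKM, log2 fold change -0.56, edgeR adjusted p = 0.000174), Bst2 (460 to 377 FPKM, -0.31), Rsad2 (56.3 to 43.5 FPKM, -0.39) and Ifi27l2a (481 to 398 FPKM, -0.29). The interferon-related TRIM members stood beside these at a median of -0.04 with 0 of 15 called, and the difference between the lists was not tested. The direction of this interferon list was already known from earlier results of these data and is not independent evidence.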

How the data were processed

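The submitters' processing notes name StringTie 1.3.4d, HISAT2 2.0.4, cutadapt 1.9 and the build mm10. No source used here gives settings, annotation release or strandedness. Per the file headers, the authors deposited an FPKM and a count per gene and library. The deposited counts are whole numbers but estimated counts, and FPKM is listed at 0.0001 where the count is 0. All value columns were used.

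Counts were rounded. The test was edgeR's quasi-likelihood test (edgeR 4.0.16, R 4.3.3; TMM, filterByExpr with a minimum count of 10 and total of 15, glmQLFit, glmQLFTest, labelled KO against WT), with Benjamini-Hochberg adjustment over 16256 genes. The test was checked on simulated data. Limits of 95% use the test's degrees of freedom, and FPKM is given as mean ± SD. Alternatives were DESeq2 1.42.0 on all genes with a count, with its own filter, limma 3.58.1, other filters and scalings, a replicate block and each library left out. Shared 50-base words and opposite-strand exons were found in GENCODE M21, where 58 of 68 members had the same coordinates. Promoters of 53 members were matched in RefSeq.

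Members, lists and tests were chosen with earlier results of these data known. Named by rule were called members, those with a mean of at least 20 FPKM, interferon-related and chromatin members, the 3 highest untested members and up to 4 called genes per list. Trim13, Trim44, Trim62, Trim16, Trim7, Trim17, Trim37, Trim2, Trim43c, Trim38 and the untested members named other than Trim69, Trim15 and Trim29 were named after their values were seen.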

Additional observations from a re-analysis of the deposited data

How the results depend on the processing

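Of 600 comparisons of a named gene with an alternative, 524 kept direction and side of the threshold, 50 lost a call, 6 gained one and 20, all of genes that were not called, changed sign. The number of TRIM genes called higher was 2 and became 4 with DESeq2 (which also differed in its filter on low counts, so tool and filter changed together), 1 with no filter on low counts and 0 to 3 with 1 library left out. Same-numbered libraries did not deviate together over the tested genes as a whole (correlations of -0.0205, -0.0144 and 0.0153). Such correlations cannot tell whether same-numbered libraries were handled together, which no label states. With the replicate number as a block, 0 TRIM genes were called higher and 1 lower (Trim25, log2 fold change -0.25, edgeR adjusted p = 0.0188). Of all genes 1012 were called (2060 without the block). The calls were 2 in the signalling list, 2 among partners of the chromatin members and 1 of the E1 and E2 genes. Trim34b changed sign (-0.0039). Trim27 and Trim65 then had edgeR adjusted p of 0.0804 and 0.0951.

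With a minimum log2 fold of 0.26 the calls were 1224 over all genes and 1 in the signalling list. They were 1 among partners of the chromatin members, 9 interferon-stimulated genes and 3 E1 and E2 genes. DESeq2 called 3 TRIM-type genes with other names. The E1 and E2 genes called were 4 with no filter and 5 with limma at either pseudocount. Ube2m was not called by limma (adjusted p of 0.0559 and 0.0577), and Rara neither with no filter (edgeR adjusted p = 0.0756), nor with median-of-ratios factors (0.0509), nor by limma on log2(FPKM + 1) (0.0506).

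With 1 library left out the calls were 1244 to 1339 over all genes, 3 to 4 in the signalling list and 1 to 2 TRIM-type genes. They were 2 to 3 among partners of the chromatin members and 2 to 5 E1 and E2 genes. The log2 fold changes that changed sign ran from -0.49 to 0.025 for Trim25, -0.082 to 0.11 for Trim30d, -0.034 to 0.051 for Trim35, -0.059 to 0.022 for Trim28, -0.092 to 0.14 for Trim12c, -0.12 to 0.53 for Trim21, -0.22 to 0.55 for Trim26, -0.0155 to 0.034 for Trim33, -0.11 to 0.17 for Trim34b, -0.32 to 0.042 for Trim6 and -0.066 to 0.11 for Mettl3. Fits on 5 libraries have fewer samples; the cause of other changes was not tested. Among the 44 tested members, 37 had 95% limits within a log2 fold change of -1 and 1.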
